A study of Mus musculus with 2 samples.

Results

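The genes described here are 9 mouse genes whose human counterparts are linked to Parkinson, Alzheimer or prion disease: *Park7*, *Pink1*, *Uchl1*, *Lrrk2*, *Vps35*, *App*, *Mapt*, *Prnp* and *Apoe*. They were found by symbol among the 32285 genes of the count tables, where each occurred and none is a subunit of oxidative phosphorylation (OXPHOS). Gene sets named after neurodegenerative diseases consist to a large part of nuclear OXPHOS genes, and the question was whether disease genes outside OXPHOS move with the OXPHOS level of the cells or with the genotype. The study profiled Cajal-Retzius (CR) cells, early-born reelin-secreting neurons that are largely lost after birth, from the mouse hippocampus at postnatal day 14 by single-cell RNA-sequencing. CIC (capicua), the gene product deleted, is a transcriptional repressor, and *ΔNp73-Cre* acts in CR cell progenitors and their progeny. The control library pooled 4 mice (3 male and 1 female) that were *ΔNp73-Cre; Cic flox/+; tdT* and the knockout library pooled 4 mice of the same litters (2 male and 2 female) that were *ΔNp73-Cre; Cic flox/flox; tdT*, so that both genotypes carried the Cre and the tdT reporter and the control had already lost 1 of its *Cic* alleles in Cre-expressing cells. Live tdT+ cells were sorted after papain dissociation, and each genotype was 1 library, so no difference between genotypes has a replicate check, and genotype and library cannot be told apart.

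Barcodes were kept with at least 2000 unique molecular identifiers (UMIs, each counting 1 captured RNA molecule) and at least 5 *Reln* UMIs, which gave 1003 of 1011 control and 390 of 406 knockout barcodes. No barcode was shared between the libraries. Each library was divided by the share of UMIs from 98 nuclear OXPHOS genes (symbols beginning Atp5, Cox4 to Cox8, Nduf, Sdh or Uqcr) into OXPHOS-low barcodes (920 control, 356 knockout) and OXPHOS-high barcodes with a share of at least 1.8% (83 control, 34 knockout). The classes are ranges of a score and were not set by clustering. Few barcodes lay near the threshold: 6 control and 4 knockout barcodes between 1.6% and 1.8%, and 5 and 5 between 1.8% and 2.0%. By comparison, 185 control and 87 knockout barcodes lay between 1.0% and 1.8%. The paper describes a cluster set apart from its others, whose markers were enriched for mitochondrial and neurodegenerative disease terms. Whether the OXPHOS-high barcodes are that cluster was not tested. Of 10 CR cell markers, 9 or 10 were detected in at least 25% of barcodes in each of these 4 groups. The OXPHOS-high barcodes were deeper (median 13502 against 6064 UMIs in the control, 14230 against 6420 in the knockout), and held a smaller share of mitochondrially encoded RNA (1.89% against 3.17% of UMIs, and 2.29% against 3.88%) and of 6 nuclear-retained transcripts such as *Malat1* (3.40% against 7.47%, and 3.59% against 7.45%). In droplets without cells (20 to 100 UMIs), OXPHOS genes made up 4.61% of UMIs in the control library and 4.44% in the knockout, above either class of barcodes. *Cic* itself had 58.9 CPM (UMIs of the gene scaled to 1000000 UMIs, leaving out all genes whose symbols start with mt-, Rpl, Rps or Mrp) in the control library and 51.3 CPM in the knockout; whether the counted 3′ end lies outside the deleted exons was not examined, so this does not check the labels.

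As background, *Park7* (DJ-1, an oxidative stress sensor) and *Pink1* (a kinase that marks damaged mitochondria for removal) act around mitochondria, *Uchl1* is an abundant neuronal deubiquitinase, *Lrrk2* is a kinase of Rab GTPases, and *Vps35* is the core of retromer, which returns cargo from endosomes. *App* encodes the precursor of amyloid beta, *Mapt* the microtubule-associated protein tau, *Prnp* the cell-surface prion protein, and *Apoe* a lipid carrier made mainly by astrocytes and reactive microglia. Mutations in some of these genes cause familial disease, whereas common alleles of others change its risk.

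*Park7*, *Pink1* and *Uchl1* were higher in the OXPHOS-high barcodes of both libraries, and *App* was lower. *Prnp* was lower in those of the knockout, *Apoe* was lower in the control, where 2 barcodes held most of its UMIs, *Mapt* and *Vps35* were within 1.5-fold, and *Lrrk2* was sparse. In the control, 3 of the 9 genes were at least 1.5-fold higher in the OXPHOS-high class, against 24.6% of the 8304 genes with at least 100 UMIs, and 2 were at least 1.5-fold lower, against 27.7%. In the knockout, 3 were higher, against 21.7% of 5226 genes, and 1 was lower, against 25.4%. With so few genes and so high a background, these counts say nothing particular about the set, and the genes are described 1 by 1. All 9 had at least 100 UMIs over both classes of the control. In the knockout 7 did, and *Lrrk2* and *Apoe*, the 1 gene counted as lower there, did not.

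*Park7* was at 59.4 CPM in OXPHOS-low and 382 CPM in OXPHOS-high control barcodes, and at 62.5 and 387 CPM in the knockout. The OXPHOS-high level was 6.42-fold the OXPHOS-low level in the control library (95% interval 5.52 to 7.48) and 6.18-fold in the knockout (4.92 to 7.77). These intervals are exact for counts and, like all intervals here, cover counting error only. The ratio lay above that of 98.6% of all genes in the control library and 97.7% in the knockout. The OXPHOS genes had median ratios of 4.73 and 4.67, which the split itself sets, since the classes were divided on their sum. Thinned to 2000 UMIs per barcode, 8.26% of OXPHOS-low and 37.3% of OXPHOS-high control barcodes had a *Park7* UMI (6.56% to 10.2% and 27.0% to 48.7%), and 10.96% and 50% of knockout barcodes. Without thinning these shares were 26.8%, 87.9%, 32.6% and 85.3%. In droplets without cells, of median depth 89 and 44 UMIs, the share was 5.05% in the control library and 2.27% in the knockout.

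*Pink1* was at 55.5 CPM in OXPHOS-low and 157 CPM in OXPHOS-high control barcodes, and at 63.4 and 174 CPM in the knockout. Its OXPHOS-high level was 2.83-fold higher in the control library (2.31 to 3.45) and 2.74-fold in the knockout (2.05 to 3.64). *Uchl1* was at 212 and 596 CPM in the control classes and at 222 and 546 CPM in the knockout classes, a ratio of 2.81 (2.54 to 3.11) and 2.47 (2.105 to 2.88). Both the mitochondrial kinase and the deubiquitinase were thus higher in the OXPHOS-high class of each library, with intervals that left out 1.5. Among all genes these ratios were at percentiles 90.4 and 90.3 in the control library and 91.1 and 89.7 in the knockout.

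*App* was at 1818 CPM in OXPHOS-low and 1202 CPM in OXPHOS-high control barcodes and 1764 and 1301 CPM in the knockout. Its ratio was 0.661 (0.621 to 0.703) in the control, where it passed the 1.5-fold limit, and 0.738 (0.674 to 0.806) in the knockout, where it did not. Per barcode, by contrast, the mean number of *App* UMIs was 11.2 in OXPHOS-low and 13.7 in OXPHOS-high control barcodes, and 11.6 and 16.5 in those of the knockout, so the lower CPM is a smaller part of a larger total. The median gene had a ratio of 0.896 in the control library and 0.885 in the knockout, and *App* was at percentiles 27.0 and 34.1. In barcodes of at least 10000 UMIs in both classes (62 OXPHOS-high and 51 OXPHOS-low in the control), an alternative chosen after seeing the data, the control ratio of *App* was 0.753, within 1.5-fold.

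*Prnp* was at 514 and 499 CPM in the control classes and at 514 and 373 CPM in the knockout classes. The ratio was 0.971 (0.879 to 1.07) in the control library and 0.725 (0.611 to 0.855) in the knockout. The prion protein gene thus differed between classes by more than counting error in the knockout, and not detectably in the control. Among all genes its ratios were at percentiles 55.3 in the control library and 32.6 in the knockout, so neither was unusual. *Mapt* was at 173 and 194 CPM in the control library and at 171 and 199 CPM in the knockout, with ratios of 1.12 (0.954 to 1.32) and 1.16 (0.909 to 1.47). *Vps35*, at 98.6 and 126 CPM in the control library and 129 and 148 CPM in the knockout, had ratios of 1.28 (1.04 to 1.56) and 1.15 (0.866 to 1.51). Neither the tau gene nor the retromer gene passed 1.5-fold in either library. *Lrrk2* was sparse, with 124 and 20 UMIs in the control classes and 61 and 12 in the knockout classes, or 21.9, 21.2, 26.1 and 27.8 CPM. Its ratios of 0.967 (0.571 to 1.56) and 1.06 (0.521 to 1.99) have intervals that reach 1.5-fold in both directions, so a difference of that size was not detectable at this depth.

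**Figure D1:**
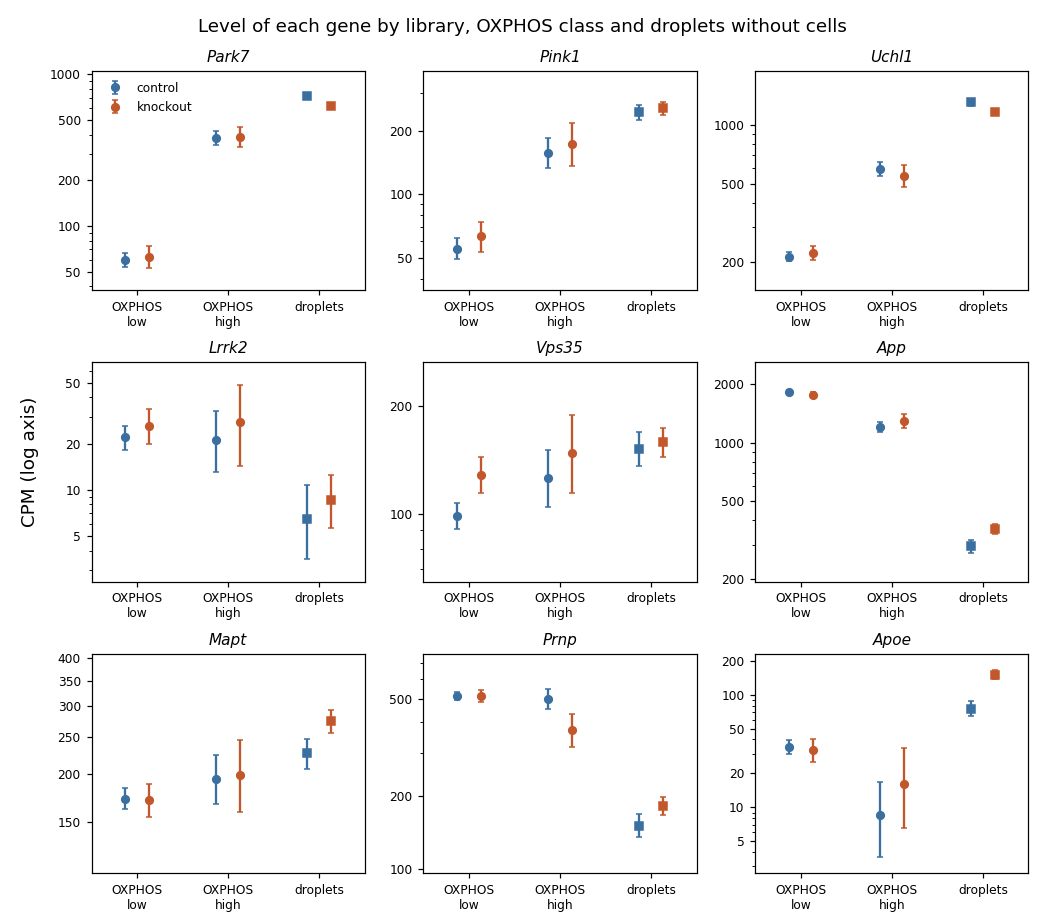
Level of each of the 9 genes in CPM (log axis) in OXPHOS-low barcodes, OXPHOS-high barcodes and droplets of 20 to 100 UMIs (squares), for the control (blue) and the knockout (orange); bars are exact 95% intervals. *Park7*, *Pink1* and *Uchl1* climb from OXPHOS-low barcodes to OXPHOS-high barcodes to droplets in both libraries, and *App* descends. *Apoe* is lowest in OXPHOS-high barcodes, but in the control its OXPHOS-low level rests on 2 barcodes with 140 and 18 UMIs.

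**Figure D2:**
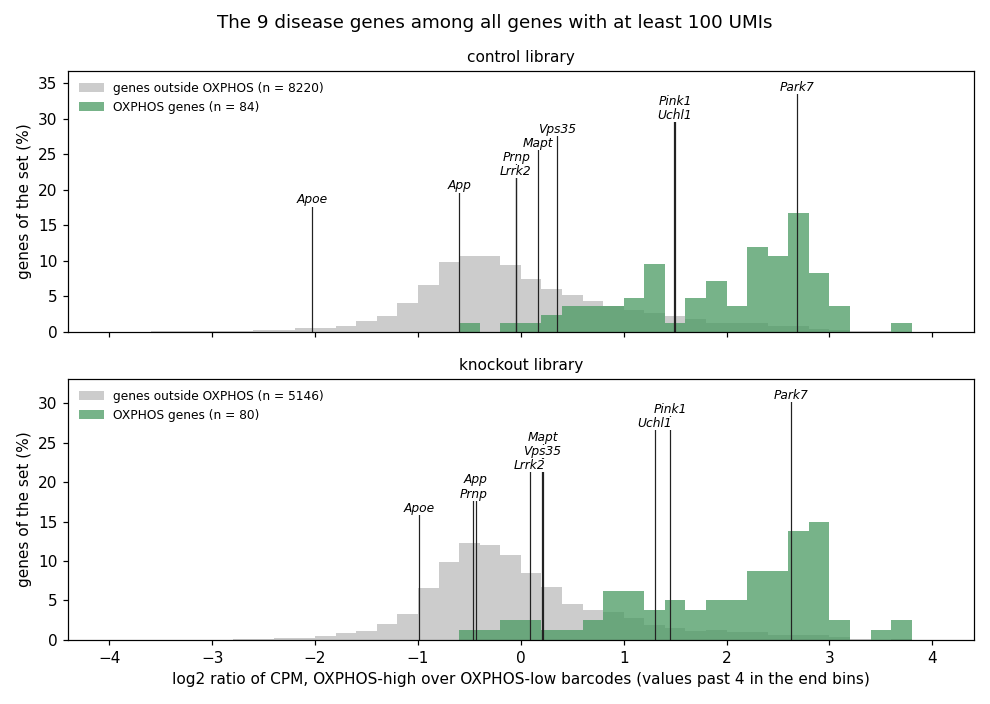
Distribution of the log2 ratio of CPM between OXPHOS-high and OXPHOS-low barcodes, as a percentage of the OXPHOS genes (green) and of the genes outside OXPHOS (grey) with at least 100 UMIs, in the control (upper panel) and the knockout (lower panel); vertical lines mark the 9 genes, of which *Lrrk2* and *Apoe* had fewer than 100 UMIs in the knockout. The position of the OXPHOS genes is set by the division into classes. *Park7* lies at 2.68 and 2.63 and *App* at -0.60 and -0.44, among the bulk of the other genes.

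Along the OXPHOS share, *Park7* was at 36.4 CPM in control barcodes with a share under 0.6%, 62.2, 63.9 and 82.8 CPM in the following bins up to 1.8%, and 306, 419 and 475 CPM in the bins from 1.8%, 2.5% and 3.5%. The knockout bins were at 36.5, 64.4, 48.1 and 102 CPM below 1.8%, and at 270, 397 and 692 CPM above it. In the lowest and the next-to-threshold bins the intervals did not overlap (27.6 to 47.2 against 66.6 to 102 in the control), so the gradient was also present among OXPHOS-low barcodes. *Uchl1* likewise ran from 182 to 267 CPM over the OXPHOS-low bins of the control and to 814 CPM in the highest bin, and *Pink1* from 42.2 to 80.0 and to 191 CPM.

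*App* stayed between 1772 and 1878 CPM in the 4 control bins below 1.8% and was at 1352, 1102 and 1073 CPM above it. *Prnp* ran upward below the threshold, from 402 CPM in the lowest control bin (372 to 435) to 579 CPM in the bin of 1.0% to 1.8% (535 to 626), and from 442 to 628 CPM in the knockout. In the bins from 1.8%, 2.5% and 3.5%, *Prnp* was at 446, 538 and 536 CPM in the control and at 409, 347 and 355 CPM in the knockout. The near-equal *Prnp* levels of the 2 control classes therefore cover a difference within the OXPHOS-low range. The control bin from 3.5% (19 barcodes) and the 3 knockout bins above the threshold (13, 14 and 7 barcodes) are thin.

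**Figure D3:**
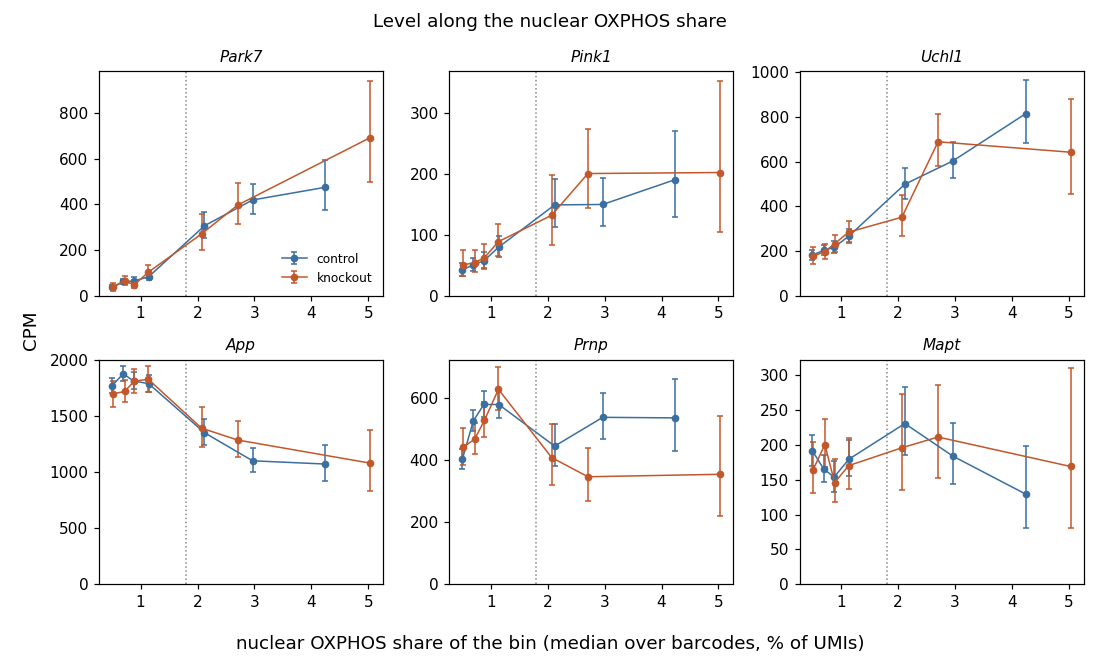
Level in CPM of 6 of the genes in bins of the nuclear OXPHOS share (x axis, median share of the bin in percent of UMIs) in the control (blue) and the knockout (orange); bars are exact 95% intervals and the dotted line is the 1.8% threshold. *Park7*, *Pink1* and *Uchl1* are higher in every bin above the threshold than in any bin below it, *App* is lower in every bin above it, and *Prnp* climbs below it.

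The 3 genes that were higher with the OXPHOS share have short gene bodies, and gene length separated the ratios of all genes. In GENCODE M21 on GRCm38, *Park7* spans 17.3 kb (chr4:150897133-150914437, minus strand), *Pink1* 12.9 kb (chr4:138313409-138326307, minus) and *Uchl1* 11.1 kb (chr5:66676091-66687234, plus). *App* spans 224.1 kb (chr16:84949685-85173766, minus), *Lrrk2* 142.9 kb (chr15:91673175-91816120, plus), *Mapt* 100.7 kb (chr11:104231390-104332090, plus), *Vps35* 39.4 kb (chr8:85260392-85299802, minus), *Prnp* 28.5 kb (chr2:131909928-131938429, plus) and *Apoe* 3.1 kb (chr7:19696109-19699188, minus). All are protein-coding.

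In the control, the median ratio of OXPHOS-high over OXPHOS-low was 1.86 in genes under 10 kb, 1.15 from 10 to 30 kb, 0.833 from 30 to 100 kb and 0.644 above 100 kb. In the knockout the medians were 1.93, 1.13, 0.865 and 0.706. Without the OXPHOS genes they were 1.79, 1.14, 0.832 and 0.644 in the control. Read within its own length range, *Park7* was above 99.3% of genes in the control library and 98.2% in the knockout, *Pink1* above 89.7% and 88.3%, and *Uchl1* above 89.4% and 85.2%. *App* was near the middle of the long genes, at percentiles 54.3 and 55.6, whereas *Mapt* (93.5 and 92.7) and *Lrrk2* (88.5 and 89.3) were in the upper part of theirs, though with ratios close to 1. *Vps35* was at 81.6 and 74.1 of its range, and *Prnp*, at 40.2 and 22.1, in the lower part of the genes of 10 to 30 kb. *Prnp* (28.5 kb) and *Mapt* (100.7 kb) lie close to a limit of their ranges, so their percentiles depend on where the limits were set. In the neighbouring range of 30 to 100 kb, the quartiles were 0.637 and 1.12 in the control library and 0.675 and 1.16 in the knockout. The ratios of *Prnp* were 0.971 and 0.725, and those of *Mapt* 1.12 and 1.16. *Apoe*, the shortest of the 9, was at percentiles 1.85 and 4.78 of the genes under 10 kb. These 2 values are not firm. In the control, 2 barcodes held 158 of its 204 UMIs, and the knockout held only 82 UMIs. The part of nuclear-retained RNA, which differed between the classes as given above, was not tested. In barcodes of at least 10000 UMIs in both classes, the ratios were 4.81 in the control library and 6.56 in the knockout for *Park7*, 1.90 and 2.04 for *Pink1*, and 2.60 and 3.17 for *Uchl1*.

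The promoters of the 3 genes that were higher with the OXPHOS share and of *App* are shown to compare them for a motif of the OXPHOS programme. Nuclear respiratory factor 1 (NRF1), a known activator of nuclear OXPHOS genes, binds a site built from the half-site core TGCGCA, which reads the same on both strands. The 250 bases before the RefSeq transcription start on GRCm38.p6 are given 5′ to 3′ in the direction of the gene, with matches to TGCGCA in capitals, for *Park7* (chr4:150909922-150910171, minus strand), *Pink1* (chr4:138326297-138326546, minus), *Uchl1* (chr5:66675871-66676120, plus) and *App* (chr16:85173708-85173957, minus).
Park7: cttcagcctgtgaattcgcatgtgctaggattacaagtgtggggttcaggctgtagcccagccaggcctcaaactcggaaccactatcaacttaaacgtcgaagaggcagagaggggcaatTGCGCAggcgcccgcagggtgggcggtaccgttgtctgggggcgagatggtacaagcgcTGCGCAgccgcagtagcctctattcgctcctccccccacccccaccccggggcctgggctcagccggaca
Pink1: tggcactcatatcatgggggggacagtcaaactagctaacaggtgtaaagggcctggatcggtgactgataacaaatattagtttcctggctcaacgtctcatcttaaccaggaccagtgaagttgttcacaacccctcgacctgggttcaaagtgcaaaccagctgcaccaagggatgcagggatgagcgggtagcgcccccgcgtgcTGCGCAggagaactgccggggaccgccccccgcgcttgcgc
Uchl1: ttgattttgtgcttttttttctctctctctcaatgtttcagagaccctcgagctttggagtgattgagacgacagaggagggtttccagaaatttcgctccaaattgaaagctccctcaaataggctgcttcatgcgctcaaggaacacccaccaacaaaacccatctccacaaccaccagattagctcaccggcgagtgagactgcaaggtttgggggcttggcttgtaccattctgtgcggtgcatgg
App: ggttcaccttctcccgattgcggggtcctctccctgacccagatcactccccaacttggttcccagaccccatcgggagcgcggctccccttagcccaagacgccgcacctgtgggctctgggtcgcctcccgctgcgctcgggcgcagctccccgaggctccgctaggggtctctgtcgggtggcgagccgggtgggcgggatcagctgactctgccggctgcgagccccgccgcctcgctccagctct

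*Park7* and *Pink1* held TGCGCA, each with 1 further match that is not in capitals (past the start in *Park7*, across it in *Pink1*), and *Uchl1*, *App*, *Lrrk2*, *Prnp* and *Apoe* held none in the window of 250 bases before to 50 after the start. The motif occurred in 7.76% of 32851 such windows and in 25.3% of the 87 windows of OXPHOS genes. These shares were not adjusted for base composition. Over the 250 bases before the start, the median GC content was 52.4% in all windows and 57.2% in those of OXPHOS genes. It was 62.4% for *Park7*, 57.2% for *Pink1*, 48.8% for *Uchl1* and 70.8% for *App*. No window of these 7 genes held the ETS motif CCGGAAGT (3.89% of all windows), the estrogen-related receptor motif TCAAGGTCA (0.423%) or the CIC octamers TGAATGAA (1.30%) and TGAATGGA (1.205%), each searched on both strands. *Mapt* and *Vps35* had no entry. A match is a run of letters and not a measured binding site.

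Other genes of the same pathways, in lists drawn up with earlier results known, are given by how many of those with at least 100 UMIs were 1.5-fold higher or lower in OXPHOS-high barcodes. Over all genes these shares were 24.6% higher and 27.7% lower in the control, and 21.7% and 25.4% in the knockout, and counts near them are no result about a list. The shares also depended on gene length. In the control, 58.0% of genes under 10 kb were higher and 12.7% lower, against 2.19% and 55.9% of genes above 100 kb. The knockout shares were 59.1% and 10.4% against 2.27% and 42.7%. The lists were not matched for gene length, and its part in their counts was not tested. Of 31 proteasome genes, which degrade ubiquitin-tagged proteins, 27 were higher in the control and none lower, with a median ratio of 2.70, from 1.08 for *Psmd14* to 5.21 for *Psmb6*; in the knockout 25 of 30 were higher and none lower, with a median of 2.02. Redox defence genes, the company of DJ-1, were higher in 11 of 14 (median 3.44) and 8 of 10 (median 3.29), with none lower. *Txn1* (thioredoxin) was at 28.8 and 176 CPM in the control classes, *Prdx5* (a mitochondrial peroxiredoxin) at 47.5 and 256 CPM, and the lowest control ratio was 0.853 for *Prdx4*. Ubiquitin enzymes and deubiquitinases, the company of *Uchl1*, were higher in 11 of 18 in both libraries (medians 1.70 and 1.70), with 0 and 1 lower. Tubulins, calmodulins and kinesins were higher in 13 of 17 and 9 of 15 with none lower, from 0.771 for *Kif5c* to 5.30 for *Calm3* in the control. Mitochondrial channels and carriers were higher in 13 of 17 and 10 of 15, and lower in 2 and 1, from 0.584 for the calcium uniporter *Mcu* to 8.68 for *Cycs* (cytochrome c).

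Around *Pink1*, 8 of 19 genes of mitophagy and mitochondrial dynamics were higher in the control and 3 lower, with a median of 1.12, and 5 of 14 were higher and 1 lower in the knockout. The mitophagy receptors *Bnip3* and *Bnip3l* had control ratios of 5.40 (3.96 to 7.36) and 4.85 (3.98 to 5.91). Around *Vps35*, 5 of 14 retromer and sorting nexin genes were higher and none lower in the control, and 6 of 11 were higher and 1 lower in the knockout. *Vps29*, a partner of VPS35 in the retromer core, was at 32.0 and 135 CPM in the control library and 34.7 and 102 CPM in the knockout, and *Washc4* had the lowest control ratio, 0.840. Rab GTPases, 14-3-3 proteins and other genes of the LRRK2 pathway were higher in 8 of 13 and 7 of 11, with 1 lower in each. Control ratios ran from 0.572 for *Ppm1h* to 2.34 for *Ywhaz*. The kinase of this list, *Lrrk1*, had fewer than 100 UMIs and was not counted.

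Of 12 other Parkinson genes 4 were higher and 3 lower in the control, near the share over all genes, and 1 of 8 was higher and 3 lower in the knockout. *Chchd2*, a mitochondrial intermembrane protein, was the highest in both, at 155 and 1269 CPM in the control library and 136 and 1285 CPM in the knockout, and the lowest control ratio was 0.554 for the lysosomal ATPase *Atp13a2*. None of 9 other Alzheimer genes was higher in the control or of 8 in the knockout, and 1 and 3 were lower, from 0.560 for *Cr1l* to 0.974 for *Bin1* in the control.

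Of 15 genes of the APP family, its secretases and its adaptors, 1 was higher and 2 lower in the control, and of 12 in the knockout 1 was higher and 5 lower. The higher gene in both was the adaptor *Apbb1*, at 41.2 and 95.4 CPM in the control classes, and the lowest control ratio was 0.328 for *Adam17*, an alpha-secretase. The APP relatives *Aplp1* and *Aplp2* had control ratios of 0.784 (0.694 to 0.884) and 0.756 (0.688 to 0.830), beside 0.661 for *App*. Tau relatives and kinases were higher in 7 of 18 and lower in 4 in the control, and higher in 3 of 13 and lower in 1 in the knockout, from 0.454 for *Mark1* to 3.33 for *Stub1* (a ligase for misfolded proteins) in the control.

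Partners of the prion protein were higher in 1 of 9 in each library and lower in 2 and 5, from 0.456 for *Dpp6* to 2.30 for *Stip1* in the control. *Rpsa*, a further partner, was left out of these counts because its symbol starts with Rps, and had ratios of 6.20 (5.69 to 6.74) and 5.92 (5.16 to 6.81). The apolipoprotein E lipid route was higher in 1 of 8 and lower in 4 in the control (the highest ratio was 1.73 for *Nr1h2*), and higher in 0 of 4 and lower in 1 in the knockout. Endoplasmic reticulum stress genes were higher in 2 of 14 and 1 of 12 and lower in 1 and 6, from 0.624 for *Eif2ak3* to 2.39 for *Atf4* in the control. Genes of apoptosis execution were higher in 5 of 11 and 6 of 9 and lower in 0 and 1, from 0.693 for *Apaf1* to 8.68 for *Cycs*, which is also in the list of channels and carriers. Genes of other neurodegenerative diseases were higher in 8 of 18 and 6 of 15 and lower in 4 and 3, from 0.536 for *Atxn1* to 8.15 for *Pfn1*.

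**Figure D4:**
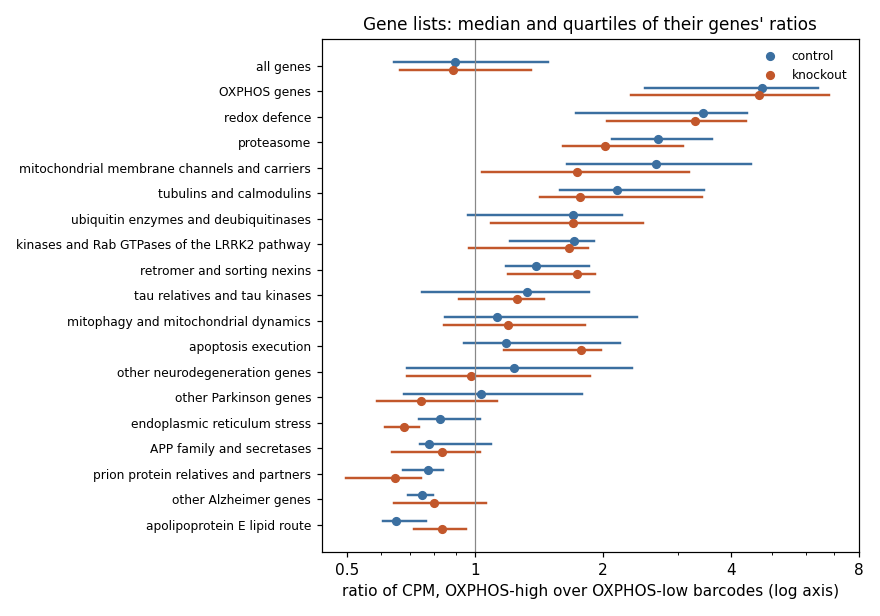
Median (points) and quartiles (lines) of the ratio of CPM between OXPHOS-high and OXPHOS-low barcodes (log axis) over the genes of each list with at least 100 UMIs, in the control (blue) and the knockout (orange). The median of the OXPHOS genes is set by the division into classes. The redox, proteasome, channel and tubulin lists lie above that of all genes (0.896 and 0.885). The APP, Alzheimer, prion, apolipoprotein E and endoplasmic reticulum stress lists lie below it in both libraries.

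Genes with the pattern over the 4 groups most like *Park7*, by distance of centred log2 CPM among 5216 genes, were *Myl12b* (0.027), *Atp5h* (0.060) and *Mif* (0.065), of which *Atp5h* is an OXPHOS gene. Those nearest to *Uchl1* were *Mpc1*, *Dctn6* and *Bax*, and those nearest to *Pink1* were *Abcf1*, *Aimp1* and *Ik*. *App* was nearest to *Baz2b*, *Cdc42bpa* and *Ldlrad3*. For *Prnp* these were *Txlna*, *Scyl2* and *Tbc1d24*, for *Lrrk2* *Timp2*, *Surf4* and *Lrrc41*, for *Vps35* *Brox* and *Jkamp* among others, for *Mapt* *Ube2d2a*, *Prrc2c* and *Nckap1*, and for *Apoe* *Gm44686*, *9630028H03Rik* and *Col24a1*. A distance over only 4 points describes the values and nothing more.

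The level of free RNA, read in droplets without cells, lay on the same side as the OXPHOS-high level for most of these genes. The droplet level was 718 CPM in the control library and 614 CPM in the knockout for *Park7*, 244 and 255 CPM for *Pink1*, 1304 and 1171 CPM for *Uchl1*, and 293 and 361 CPM for *App*. For 8 of the 9 genes in the control library and 7 in the knockout, the OXPHOS-high level lay between the OXPHOS-low and the droplet level, as it did for 73.6% and 73.1% of all genes. In amount, however, the UMIs expected from a droplet came to at most 1.45% of the UMIs of any of these genes in OXPHOS-high barcodes other than *Apoe*, where they came to 5.86% in the control library and 2.92% in the knockout. In OXPHOS-low control barcodes they came to 14.7% for *Park7*. With the droplet UMIs subtracted, the *Park7* ratio was 7.40 in the control library and 6.52 in the knockout. The window of 20 to 100 UMIs took 29040 of 78295 control droplets of 20 to 300 UMIs, but 75813 of 76330 in the knockout. Median control depth was 89 UMIs in the first window and 107 UMIs in the wider 1. The control amounts therefore depend on the window and are not like for like with the knockout. With the wider window the control *Park7* ratio was 7.59.

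Between the genotypes, the levels of these genes differed little in OXPHOS-low barcodes, and none of the 9 was past 1.5-fold, against 2.96% of 8848 genes higher and 2.02% lower in the knockout. The paper reports that CIC was lost from most but not all hippocampal CR cells of this knockout line. Knockout barcodes may therefore include cells that kept CIC, and which ones did was not examined. *Vps35* had the largest ratio, at 98.6 CPM in the control library and 129 CPM in the knockout, or 1.30-fold (1.13 to 1.502), at percentile 91.0 of all genes. The other ratios were 1.05 for *Park7*, 1.14 for *Pink1*, 1.05 for *Uchl1*, 1.19 for *Lrrk2*, 0.970 for *App*, 0.993 for *Mapt* and 1.00 for *Prnp*, and each interval held 1, as did that of *Apoe* at 0.928 (0.701 to 1.22), which turned on 2 barcodes described below. The narrowest were those of *App* (0.935 to 1.01) and *Prnp* (0.934 to 1.07).

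In OXPHOS-high barcodes, *Prnp* was at 499 CPM in the control library and 373 CPM in the knockout, 0.747-fold (0.621 to 0.895), at percentile 8.69 of all genes. *Apoe*, with 8 and 7 UMIs, had a ratio of 1.91 (0.590 to 6.03) and was the only 1 of the 9 past 1.5-fold, below the minimum of 100 UMIs, against 3.34% of 3051 genes higher and 3.44% lower. The other 7 genes had ratios from 0.917 to 1.31 with intervals that held 1. The knockout ratio between OXPHOS classes, divided by the control ratio, was 0.747 (0.617 to 0.904) for *Prnp* and 1.12 (1.002 to 1.24) for *App*. For *Prnp* this restates the genotype ratio in OXPHOS-high barcodes and is not a second result, because its OXPHOS-low level was 514 CPM in both libraries. For *Park7* the same quotient was 0.962 (0.736 to 1.26). The intervals of these quotients are approximate, from the logarithm of the counts.

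*Apoe* was the gene for which few barcodes decided the value. Control OXPHOS-low barcodes held 196 UMIs (34.6 CPM) and OXPHOS-high ones 8 (8.48 CPM), and the knockout classes held 75 (32.1 CPM) and 7 (16.2 CPM). Of the 204 control UMIs, 158 lay in 2 OXPHOS-low barcodes, with 140 and 18 UMIs. These 2 barcodes also held 134 and 28 UMIs of 20 astrocyte and microglia markers. In the other control barcodes the most was 4 *Apoe* UMIs, and in the knockout 8. Over all chosen barcodes the marker sums were low: astrocyte markers came to 125 to 264 CPM per group and microglia markers to 27.8 to 69.0 CPM. Of 10 microglia markers, 4 were at 0 in OXPHOS-low control barcodes, 5 in OXPHOS-low knockout barcodes and 7 in each OXPHOS-high class. Of 10 astrocyte markers, 1 or 2 were detected in at least 25% of barcodes in each group. The marker sum therefore also counts genes read widely in these barcodes.

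Without barcodes of at least 20 glial marker UMIs (2 control, 1 knockout), a limit chosen after seeing the values, *Apoe* was at 6.98 CPM in the control library (46 UMIs, 5.11 to 9.31) and 29.98 CPM in the knockout (82 UMIs, 23.8 to 37.2), a ratio of 4.29 (2.96 to 6.30). Among 9422 genes with at least 100 UMIs in these barcodes, 12, *Apoe* among them, had a knockout over control ratio this high or higher. The UMIs were spread over 38 of 1001 control barcodes (3.80%, 2.70% to 5.17%) and 44 of 389 knockout barcodes (11.3%, 8.34% to 14.9%), and 6 and 21 barcodes had at least 2. The 1 knockout barcode left out had 26 marker UMIs and 0 *Apoe* UMIs. Of the droplets without cells, 0.513% in the control library (median depth 89 UMIs) and 0.505% in the knockout (44 UMIs) had an *Apoe* UMI, and a droplet's worth of RNA in each barcode would amount to 5.65 and 2.34 UMIs. The control amount depends on the droplet window, as given above. Thinned to 2000 UMIs and with no barcode left out, 1.41% of OXPHOS-low control barcodes (0.754% to 2.40%) and 5.06% of knockout ones (3.02% to 7.87%) had an *Apoe* UMI. The level of *Apoe* in the droplets of the knockout, 150 CPM, was also above that of the control, 75.3 CPM, and its part in the difference was not tested beyond these counts.

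**Figure D5:**
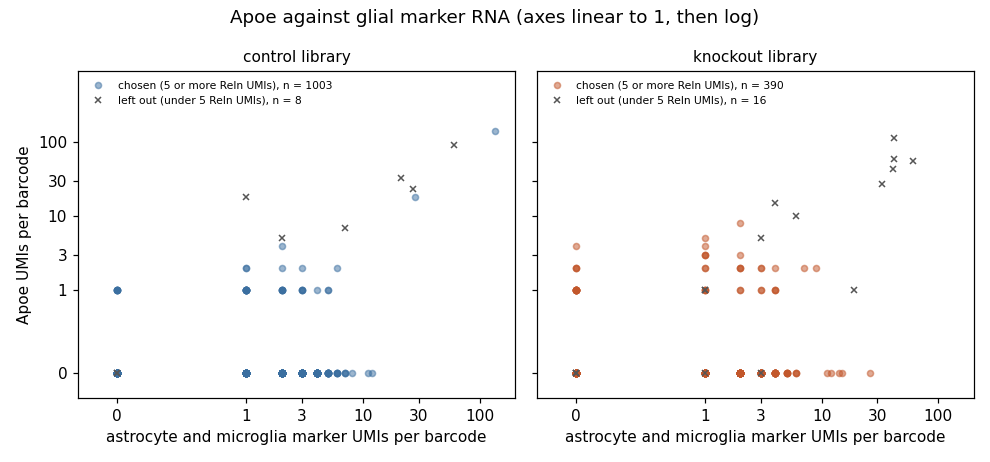
*Apoe* UMIs against the summed UMIs of 20 astrocyte and microglia markers, per barcode of at least 2000 UMIs, in the control (left) and knockout (right) library; circles are barcodes with at least 5 *Reln* UMIs and crosses those with fewer, and both axes are linear up to 1 and logarithmic above. The 2 control circles with 140 and 18 *Apoe* UMIs lie among the crosses at high marker counts, and the knockout circles with 2 to 8 *Apoe* UMIs have 0 to 9 marker UMIs.

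Strand and intron handling bear on a few of these genes. *Uchl1os*, which overlaps the start of *Uchl1* on the other strand, had 39 and 14 UMIs in the chosen control and knockout barcodes, *Orc6* at the start of *Vps35* had 267 and 112, *Gm11659* within *Mapt* had 80 and 33, and 3 counted antisense genes within *App* had 28 to 233 UMIs in the control. Reads in the bases that such a pair shares cannot be told apart if strand was not used.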

How the data were processed

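Per the labels, DAPI- tdT+ cells were sorted and libraries made with the 10x 3′ v3.1 kit. The authors deposited raw UMI counts of every barcode, without normalization, cell calling or doublet removal. The matrix header names Cell Ranger 4, the submitters' notes Cell Ranger 8.0.1 and mm39, and the paper's methods another version on mm10. Whether intronic reads or strand were used is not given in the sources used here, and including introns would raise the counts of long genes. The number of per-sample value columns left without a sample was 0.

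Counts were summed over the barcodes of each group and scaled to CPM. With 1 library per genotype no test or p-value was made, and genes were counted by the size of the ratio alone; ratios carry exact conditional 95% Poisson intervals and shares exact Clopper-Pearson intervals, which cover counting error only. UMIs collapse copies of a molecule, but cells of a library share their preparation. A total of 0 was set to 3 counts in ratios over all genes. No doublet caller was run. Named genes were all 9, the 3 nearest patterns of each, and the highest and lowest control ratio of each list, with some partner genes; some list genes and the 20-UMI glial limit were chosen after their values were seen, and some of these genes are not reported here. The genes and lists were chosen with earlier results of these data known. Alternatives were the scaling, barcode weights, UMI, *Reln* and OXPHOS limits, quality limits at 3 median absolute deviations, droplet subtraction, glial barcodes, the top barcode, the fold and the thinned depth; the depth of at least 10000 UMIs and droplets of 20 to 300 UMIs were added after seeing the data. Python 3.11.15, numpy 2.4.6, scipy 1.17.1 and pandas 2.3.3 were used, and the ratio and share functions were tested on simulated data. Gene positions came from GENCODE M21 by Ensembl identifier (9 of 9 matched) and promoters from RefSeq on GRCm38.p6 (7 of 9 matched).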

Additional observations from a re-analysis of the deposited data

Results flagged for a closer look

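Barcodes with at least 2000 UMIs but fewer than 5 *Reln* UMIs entered no comparison, and some of these genes were higher there than in the chosen barcodes of the same library, with intervals that did not overlap. In the 8 such control barcodes, *Park7* was at 598.6 CPM (22 UMIs) against 105 CPM in the chosen ones, *Lrrk2* at 163.3 CPM (6 UMIs) against 21.8 CPM (in the knockout 21.1 CPM, 1 UMI, against 26.4 CPM), and *Apoe* at 4816 CPM (177 UMIs) against 30.9 CPM. In the 16 such knockout barcodes, *Park7* was at 379.9 CPM (18 UMIs) against 113 CPM and *Apoe* at 6965 CPM (330 UMIs) against 29.7 CPM. The most *Apoe* UMIs in 1 of these barcodes was 91 in the control and 113 in the knockout, at 60 and 42 glial marker UMIs. *App*, at 272 and 422 CPM, was lower there than its 1730 and 1691 CPM in the chosen barcodes.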

How the results depend on the processing

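Of 513 alternative ratios, 489 lay within the counting interval of the reported value and 24 outside it. Of these 24, 14 were on the same side of 1 as the reported value and 10 on the other side: 8 of *Apoe*, *Prnp* between the control classes at 1.13 with barcodes weighted equally, and *App* between genotypes in OXPHOS-high barcodes at 0.972 at 3 deviations. A further 29 ratios crossed 1 within the interval. The control ratio of *Apoe* between OXPHOS classes was 2.913 at a minimum of 1 *Reln* UMI, 1.006 without barcodes of 3 or more glial UMIs and 1.915 at 10000 or more UMIs in both classes, and its knockout over control ratio in OXPHOS-high barcodes was 0.1743 at 1 *Reln* UMI. *Apoe* in OXPHOS-low barcodes ranged from 0.594 to 5.17 between genotypes. The *Park7* ratio between classes ranged from 4.81 (at 10000 or more UMIs) to 7.59 in the control and from 5.82 to 6.99 in the knockout, *Pink1* from 1.90 to 3.23 and 2.04 to 3.16, and *Uchl1* from 2.60 to 3.02 and 2.25 to 3.17, so that these 3 genes were past 1.5-fold under all these alternatives, joined by *Apoe* in the control at 1 *Reln* UMI and at 10000 UMIs. *Vps35* in OXPHOS-low barcodes ranged from 1.28 to 1.34 between genotypes, and *Prnp* in OXPHOS-high barcodes from 0.671 to 0.771.

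The count of genes 1.5-fold lower in OXPHOS-high control barcodes, 2 as reported, was 1 with CPM outside OXPHOS, 1000 UMIs, 1 *Reln* UMI, the limits at 3 deviations, glial barcodes or the top barcode left out, a 1.5% threshold or a 2-fold limit, and 0 at 10000 UMIs. In the knockout it was 0 in place of 1 at the limits of 3 deviations, at 10000 UMIs and at 2-fold, and 2 without the top barcode. Between genotypes in OXPHOS-low barcodes, 1 gene was lower with barcodes weighted equally, and 1 was higher at 3 deviations or without glial or top barcodes. In OXPHOS-high barcodes, 2 were higher with equal weights, at 3 deviations or at a 2.0% threshold, 0 at 1000 UMIs, 1 *Reln* UMI or 2-fold, and 1 was lower at 1 *Reln* UMI. The cause was not tested. No paired analysis was possible because each genotype was 1 library.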
